A study of Drosophila melanogaster with 9 samples.

Results

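The centriole and basal body genes described here are 9 Drosophila melanogaster genes that build, duplicate or coat centrioles: SAK, ana2, Sas-6, Sas-4, ana1, ana3, asl, Plp and unc. They were chosen by symbol or synonym in the gene annotation of the array, and 7 of the 9 had a probe set by that rule, among 11983 genes with a probe set of a single symbol. The probe set of ana1 was identified only through its CG number in the study's supplementary tables, so ana1 is described beside the 7 genes and left out of their counts. No probe set carried the name unc, and unc was not analysed here. Where a gene had several probe sets, as Plp did with 3, the one with the highest mean over all 9 arrays was used and the others are given beside it. In the RefSeq annotation SAK and Plp lie on chromosome arm 3L, Sas-4, Sas-6, asl and ana1 on 3R, and ana2 and ana3 on 2R.

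A centriole is a cylinder of microtubules that is copied before each cell division by a fixed order of proteins: a kinase licenses the site, a cartwheel sets the symmetry of the new cylinder, and wall proteins then add and stabilise the microtubules. In the fly testis, the centrioles of primary spermatocytes grow unusually long, dock at the plasma membrane and organise the meiotic spindles, and no new copy is made before the final meiotic division. Each spermatid therefore receives a single centriole, which serves as the basal body of the sperm flagellum.

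RNA was measured in the apical, middle and distal regions of testes from males of the wild-type TEMPE T strain, a line free of Wolbachia that came from near Tempe, Arizona. Virgin males were 6 to 10 days old, the seminal vesicles were removed, and each replicate pooled 250 to 500 dissections. The apical region is enriched in mitotic cells (stem cells and spermatogonia), the middle region in meiotic cells (spermatocytes) and the distal region in post-meiotic cells (elongating spermatids and sperm), with 3 biological replicates of each on Affymetrix Drosophila Genome 2.0 arrays. The regions are enriched and not pure, and all 3 come from 1 genotype without any treatment, so they differ in cell makeup as well as in stage. In such bulk samples, fewer cells of a type and less RNA per cell cannot be told apart.

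The values are log2 intensities, in which 1 unit is a 2-fold difference. Replicates of a region correlated at 0.993 to 0.998. A marker is counted as risen or fallen at an adjusted p under 0.05 by limma, as described below. Over all probe sets, 24.3% rose and 26.3% fell in the meiotic relative to the mitotic region. In the post-meiotic relative to the meiotic region, 37.8% rose and 27.8% fell. Spermatogonia markers (bam, nos, zpg, piwi) fell in 4 of 4 at both steps, and spermatid markers (schuy, t-cup, wa-cup, d-cup) rose in 4 of 4 in the meiotic over the mitotic region. In the post-meiotic relative to the meiotic region 2 of the 4 spermatid markers rose and 1 fell (wa-cup, by 0.94). Of 5 spermatocyte markers (fzo, sa, can, bol, twe), 2 rose and 1 fell in the meiotic relative to the mitotic region. All 5 fell in the post-meiotic relative to the meiotic region, with a median difference of -1.72, and their array means were 10.2 in the mitotic, 10.78 to 10.93 in the meiotic and 8.64 to 8.81 in the post-meiotic region. Of 5 sheath muscle genes, 4 fell in the meiotic relative to the mitotic region, and 4 rose in the post-meiotic relative to the meiotic region with a median difference over the 5 of 4.0. The array means of these 5 muscle genes were 7.5 to 7.88 in the mitotic, 6.39 to 6.81 in the meiotic and 9.71 to 10.02 in the post-meiotic region. Of 7 hub and cyst cell markers (upd1, hh, Fas3, tj, zfh1, eya, ptc), 2 rose and 3 fell in the meiotic relative to the mitotic region. In the post-meiotic relative to the meiotic region 2 of the 7 rose (hh by 2.85, Fas3 by 1.68) and 1 fell (zfh1, by 0.29). The hub lies in the apical region, yet hh and Fas3 had their lowest means in the mitotic region (4.4 and 6.97). Their highest were in the post-meiotic region (7.31 and 9.74), and the hub marker upd1 was dim throughout. These genes therefore do not mark the hub here, and the cells behind their signal were not tested. The part of the spermatocyte share of a region, and of muscle and other somatic RNA, in the results below was not tested.

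Differences between regions were tested with limma in a single fit over the 9 arrays, and p was adjusted over 18769 probe sets, a difference being called at an adjusted p under 0.05. Of the 7 genes, 2 rose (ana2 and Sas-6) and 3 fell (Plp, Sas-4 and ana3) in the meiotic relative to the mitotic region, against 24.3% of all probe sets called higher and 26.3% called lower. In the post-meiotic relative to the meiotic region, 5 of 7 fell (ana3, ana2, Sas-6, Sas-4 and asl), where 27.8% of all probe sets were called lower. In the same comparison 1 of 7 rose (SAK), with 37.8% of all probe sets called higher. In the post-meiotic relative to the mitotic region, none of the 7 rose and 6 fell, where 49.6% of probe sets were called higher and 29.5% lower. The gene left without a call there was SAK. The 3 arrays of one region lay clear of the 3 of the other for 5, 6 and 5 of the 7 genes in these comparisons, in the order given, beside 64.5%, 69.4% and 80.7% of all probe sets. The median difference of the 7 genes was -0.16, -0.70 and -0.92, against medians over all probe sets of 0.06, 0.13 and 0.21. These shares and medians include many dim probe sets, whereas all of the 7 genes but SAK had a mean log2 intensity over 6. Among probe sets with a mean of at least 6 the medians were -0.01, -0.03 and -0.0. With that filter 4359 probe sets were called higher and 4860 lower in the post-meiotic relative to the meiotic region, against 7100 and 5212 without it. After cyclic loess, which brings the arrays to a common intensity curve, the medians of the 7 genes were -0.20, -0.45 and -0.16, against 0.01 over all probe sets in each comparison. The shares called over all probe sets are large in every comparison, so a call on its own sets no gene apart, and the sizes and order of the levels are given below.

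**Figure D1:**
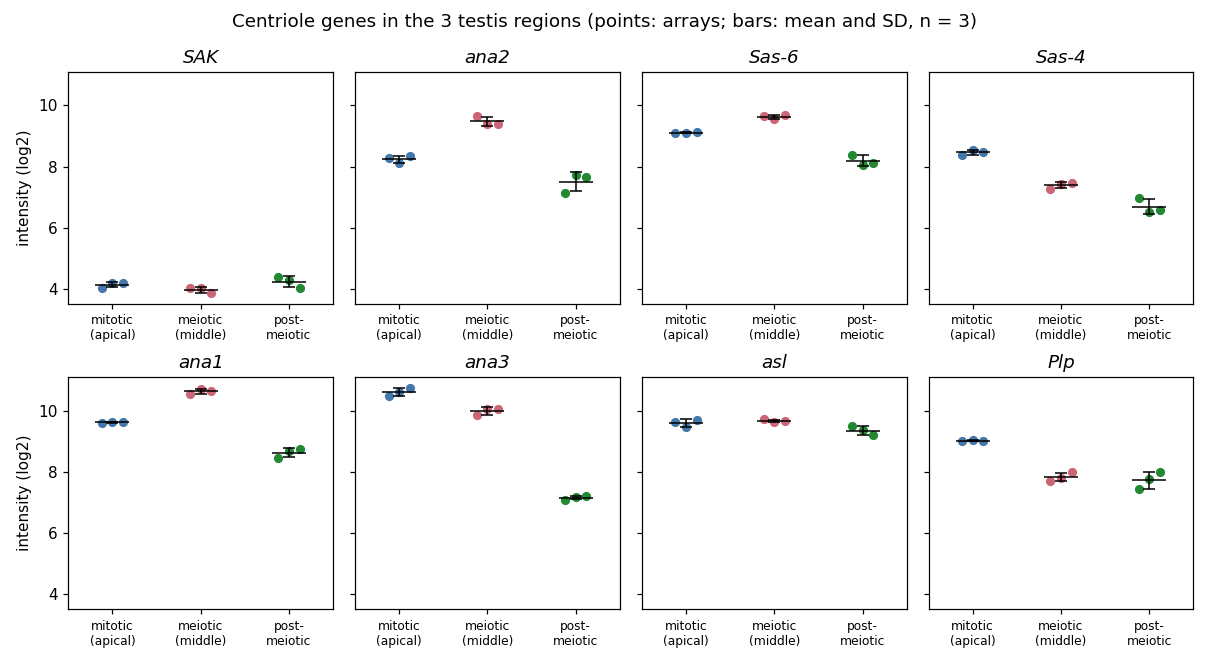
Log2 intensity (vertical axis) of the 8 centriole genes in the mitotic, meiotic and post-meiotic regions; points are the 3 arrays of a region, long bars the mean and error bars the SD. ana2, Sas-6 and ana1 have their highest values in the meiotic region, Sas-4, ana3 and Plp in the mitotic region, while SAK stays between 3.86 and 4.40 throughout.

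SAK is the fly Polo-like kinase that starts centriole duplication, and its probe set was dim in every region. Its log2 intensity was 4.03, 4.19 and 4.18 on the mitotic arrays, 4.03, 4.03 and 3.86 on the meiotic arrays and 4.40, 4.29 and 4.03 on the post-meiotic arrays. The region means lay at the 5.14, 2.69 and 4.96 percentile of all probe sets, and no detection call was used here, so it is not known whether this signal stood above background. Meiotic and mitotic arrays did not differ beyond their spread (meiotic minus mitotic -0.16, 95% interval -0.38 to 0.06, adjusted p = 0.22 by limma). SAK was 0.26 higher in the post-meiotic than in the meiotic region (SE 0.10, adjusted p = 0.038), with the lowest post-meiotic and the highest meiotic array both at 4.03 after rounding. That call was lost without any one of the 3 meiotic arrays or of post-meiotic replicates 1 and 2, with values between 0.19 and 0.29. Without post-meiotic replicate 3, the difference was 0.37 (adjusted p = 0.0053).

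ana2 and Sas-6 encode the partners of the cartwheel: Ana2 is phosphorylated by SAK and brings in Sas-6, whose rods form the hub and spokes. Both peaked in the meiotic region. The log2 intensity of ana2 was 8.28, 8.11 and 8.34 on the mitotic arrays, 9.64, 9.40 and 9.40 on the meiotic arrays and 7.14, 7.72 and 7.67 on the post-meiotic arrays. All meiotic arrays were above all mitotic arrays, which in turn were above all post-meiotic arrays. ana2 rose by 1.24 in the meiotic relative to the mitotic region (SE 0.14, 2.36-fold, adjusted p = 5.7e-06) and fell by 1.97 in the post-meiotic relative to the meiotic region (SE 0.14, adjusted p = 4.1e-08).

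Sas-6 had the narrowest spread of the group on the mitotic arrays, at 9.10, 9.10 and 9.12. Its log2 intensity was 9.66, 9.55 and 9.68 on the meiotic arrays and 8.39, 8.05 and 8.12 on the post-meiotic arrays. Here too the 3 regions did not overlap, in the same order as for ana2. Sas-6 rose by 0.52 in the meiotic relative to the mitotic region (SE 0.09, adjusted p = 3.5e-04) and fell by 1.44 in the post-meiotic relative to the meiotic region (SE 0.09, 2.71-fold lower, adjusted p = 1.7e-08). The fall between the end regions, post-meiotic minus mitotic, was -0.92 for Sas-6 (adjusted p = 1.2e-06) and -0.74 for ana2 (adjusted p = 3.8e-04). These end-region falls depended on how the arrays were scaled. The upper quartile of the deposited values was 9.1 to 9.11 on mitotic, 8.93 to 8.98 on meiotic and 8.28 to 8.5 on post-meiotic arrays, so the deposited values do not share a single distribution although quantile normalization is stated for them. Whether all 9 arrays were normalized together is not known here, and this bears on every difference between regions. After cyclic loess the difference was -0.16 for Sas-6 (adjusted p = 0.13) and 0.05 for ana2 (adjusted p = 0.82). The peak of both genes in the meiotic region kept its calls on both sides under that scaling, at 1.52 and -1.48 for ana2 and at 0.77 and -0.93 for Sas-6.

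Sas-4 links the cartwheel to the microtubules of the wall, and it decreased along the testis instead. Across the regions the log2 intensity of Sas-4 was 8.37, 8.53 and 8.48 on the mitotic arrays, 7.27, 7.42 and 7.46 on the meiotic arrays and 6.97, 6.51 and 6.59 on the post-meiotic arrays. The regions did not overlap. Sas-4 fell by 1.07 in the meiotic relative to the mitotic region (SE 0.12, 2.1-fold lower, adjusted p = 3.4e-06) and by a further 0.70 in the post-meiotic relative to the meiotic region (SE 0.12, adjusted p = 1.5e-04). Both calls held after centring the arrays (-1.01 and -0.84) and after cyclic loess (-0.88 and -0.45).

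ana1, which stabilises the new wall and helps a centriole become able to organise microtubules, had the same order of regions as ana2 and Sas-6. Its probe set gave 9.60, 9.62 and 9.64 on the mitotic arrays, 10.54, 10.72 and 10.63 on the meiotic arrays and 8.46, 8.69 and 8.75 on the post-meiotic arrays. The values of this gene were partly known when it was added. The 3 regions did not overlap, with a difference of 1.02 in the meiotic over the mitotic region (SE 0.09, adjusted p = 6.4e-07) and of -2.0 in the post-meiotic relative to the meiotic region (SE 0.09, adjusted p = 5.2e-10).

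ana3, the fly relative of Rotatin and a protein needed for the structure of centrioles and basal bodies, had the widest range of the group. For ana3 the values were 10.48, 10.60 and 10.75 on the mitotic arrays, 9.85, 10.06 and 10.05 on the meiotic arrays and 7.09, 7.19 and 7.20 on the post-meiotic arrays. Every array of a region lay below every array of the region before it. ana3 fell by 0.62 in the meiotic relative to the mitotic region (SE 0.09, adjusted p = 7.7e-05). It was 7.11-fold lower in the post-meiotic than in the meiotic region (difference -2.83, SE 0.09, adjusted p = 2.9e-11). Between the end regions it was 10.9-fold lower in the post-meiotic than in the mitotic region (difference -3.45, adjusted p = 3.5e-12). After cyclic loess these 3 differences were -0.41, -2.34 and -2.75, and all were called.

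asl encodes Asterless, the scaffold that holds SAK at the parent centriole, and among the brighter genes of the group its level changed least. Its log2 intensity was 9.64, 9.45 and 9.68 on the mitotic arrays, 9.71, 9.62 and 9.65 on the meiotic arrays and 9.50, 9.36 and 9.19 on the post-meiotic arrays. Meiotic and mitotic arrays overlapped (meiotic minus mitotic 0.07, 95% interval -0.14 to 0.28, adjusted p = 0.58, and 0.22 with an adjusted p of 0.045 after cyclic loess). asl was lower in the post-meiotic than in the meiotic region by a difference of -0.31 (SE 0.10, adjusted p = 0.013), with no overlap, and than in the mitotic region by -0.24 (SE 0.10, adjusted p = 0.035), with overlap. The sign of both falls turned after cyclic loess, to 0.15 (adjusted p = 0.14) for post-meiotic minus meiotic and to 0.38 (adjusted p = 0.0016) for post-meiotic minus mitotic. Without post-meiotic replicate 3 the asl difference was -0.23 (adjusted p = 0.054) against the meiotic region and -0.16 (adjusted p = 0.14) against the mitotic region. The call against the mitotic region was also lost without mitotic replicate 1 (-0.21), mitotic replicate 3 (-0.20) or post-meiotic replicate 2 (-0.24).

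Plp encodes the pericentrin-like protein, which coats the centriole and anchors the pericentriolar material, and its decrease lay at the first step. The log2 intensity of its brightest probe set was 9.0, 9.03 and 9.02 on the mitotic arrays, 7.69, 7.81 and 7.98 on the meiotic arrays and 7.43, 7.75 and 7.98 on the post-meiotic arrays. All mitotic arrays lay above the rest, while the post-meiotic and meiotic arrays overlapped. Plp fell by 1.19 in the meiotic relative to the mitotic region (SE 0.12, adjusted p = 2.2e-06), and the post-meiotic minus meiotic difference was -0.11 (95% interval -0.37 to 0.16, adjusted p = 0.46). Its other probe sets were dimmer and moved less. The region means of the second Plp probe set were 6.0, 5.56 and 5.43 in mitotic, meiotic and post-meiotic order, with a meiotic minus mitotic difference of -0.44 (adjusted p = 0.003). Those of the third, dimmest Plp probe set were 4.48, 4.38 and 4.33, with a difference of -0.09 (adjusted p = 0.49).

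**Figure D2:**
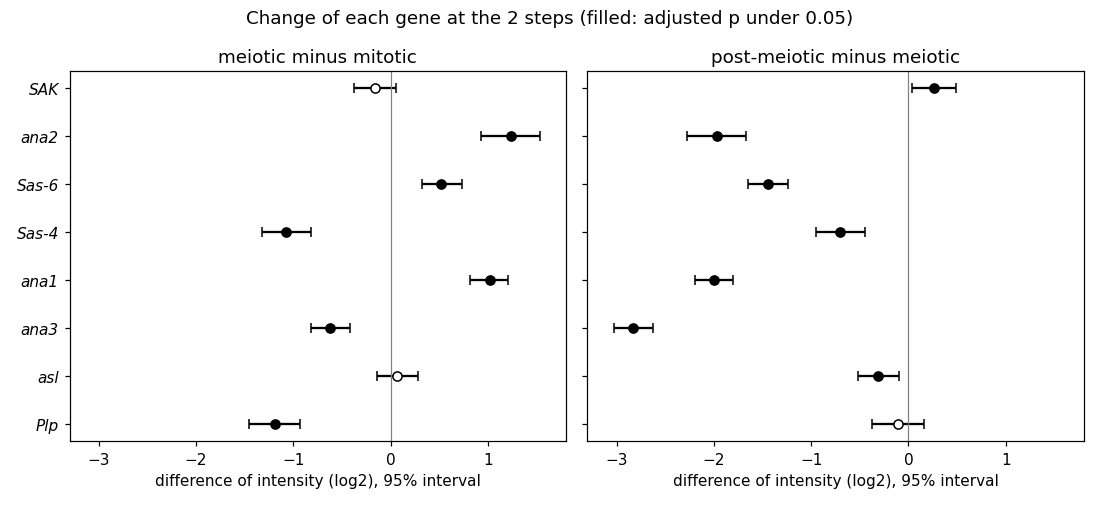
Difference of mean log2 intensity for each of the 8 genes, with the meiotic minus mitotic difference on the left and the post-meiotic minus meiotic difference on the right; bars are 95% intervals, and filled points have an adjusted p under 0.05. The first step splits the group, with ana2, Sas-6 and ana1 right of 0 and Sas-4, ana3 and Plp left of it, whereas at the second step all but SAK lie left of 0 and only the Plp interval there spans 0.

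For each single gene, the two-sided exact permutation test of 3 against 3 arrays cannot give a p below 0.1, and it gave 0.1 wherever the arrays of the regions did not overlap. The calls therefore rest on the spread shared across the 9 arrays and across probe sets in limma.

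The shapes of the profiles were set side by side by centring each gene on its own mean and taking the root mean square difference over the 9 arrays, on the log2 scale. The closest pair was ana1 with ana2 (0.183, Pearson's r = 0.98), followed by SAK with asl (0.257, r = -0.31) and by Sas-6 with ana1 (0.301, r = 0.96). SAK and asl both moved little, so their small difference does not mean that their shapes were alike. Sas-4 and Plp, both highest in the mitotic region, differed by 0.349 (r = 0.88). SAK and ana3 were the least alike at 1.58. These points share their arrays, with 3 from each region, and the values are a description of shape.

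Over all genes with a single symbol, those closest to each profile by the same measure were Rhp (0.078) and kek6 (0.0802) for SAK and CG34234 (0.1) and CG32305 (0.127) for ana2. For Sas-6 they were Cby (0.07), which encodes Chibby, a protein of the ciliary transition zone, and Coq2 (0.0713). For Sas-4 they were Hibch (0.0631) and CG31548 (0.0766), and for ana1 CG5056 (0.0931) and CG42360 (0.101). trsn (0.0936) and Sce (0.116) lay closest to ana3. CG7148 (0.0593) and z (0.0635) lay closest to asl, and Pxt (0.101) and CG12010 (0.106) to Plp. Cby had means of 8.87, 9.46 and 7.97 in mitotic, meiotic and post-meiotic order, and Coq2 had 8.6, 9.12 and 7.77. Of the genes named here as closest, only Cby is also in the lists below, and shared function was not tested.

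Other genes that act with centrioles were taken from 5 lists. Over all probe sets, 24.3% were called higher and 26.3% lower in the meiotic relative to the mitotic region, with a median of 0.06. The shares were 37.8% and 27.8% in the post-meiotic relative to the meiotic region, with a median of 0.13. Among probe sets with a mean log2 intensity of at least 6, these 2 medians were -0.01 and -0.03. Among 9 measured of 11 listed genes of centriole assembly and length, 7 rose and 2 fell in the meiotic relative to the mitotic region, with a median difference of 0.35. The calls of Klp10A and Poc1 among the 7, named here after their values were seen, were lost after cyclic loess (0.08 and -0.14). Cp110, which caps the growing end of the centriole, increased at both steps. The log2 values of Cp110 were 8.45, 8.27 and 8.40 on the mitotic arrays, 9.23, 9.16 and 9.09 on the meiotic arrays and 10.73, 10.54 and 10.41 on the post-meiotic arrays. Cp110 rose by 0.78 in the meiotic relative to the mitotic region (adjusted p = 1.1e-05) and by 1.4 in the post-meiotic relative to the meiotic region (adjusted p = 2.6e-08), the reverse of the direction of Sas-4 and ana3. Its partner Cep97 rose by 0.98 at the first step (adjusted p = 1.5e-07), and the second-step difference was 0.14 (adjusted p = 0.12). Alms1b, a relative of the human centriole protein ALMS1, rose by 1.12 at the first step (adjusted p = 2.2e-07) and differed by 0.08 at the second (adjusted p = 0.46). Rcd4, whose protein binds Ana3, fell by 1.15 at the first step and by 1.81 at the second (adjusted p = 3.8e-09). Cep135, which encodes a cartwheel and wall protein, had its highest mean in the meiotic region, with differences of 0.35 and -1.28 (adjusted p = 0.012 and 1.7e-07). Gorab fell by 0.82 at the first step (adjusted p = 1.1e-05) and rose by 0.59 at the second (adjusted p = 1.7e-04). At the second step 2 of the 9 rose and 3 fell, with a median of -0.21 that was 0.07 after cyclic loess. Under that scaling Cep97 (0.40, adjusted p = 2.7e-04) and Alms1b (0.52, adjusted p = 1.6e-04) were also called higher in the post-meiotic than in the meiotic region.

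The pericentriolar material surrounds the centriole and holds the gamma-tubulin ring complexes from which microtubules grow. Of the 15 genes of this list, all measured, 4 rose and 7 fell in the meiotic relative to the mitotic region, and 2 rose and 10 fell in the post-meiotic relative to the meiotic region, with median differences of -0.39 and -1.06. After cyclic loess the counts were 5 and 6 at the first step and 3 and 8 at the second, with medians of -0.16 and -0.64, and gammaTub23C and tacc lost their second-step falls. cnn, the scaffold of the mitotic pericentriolar material, fell by 1.67 at the first step (adjusted p = 7.2e-09), with 6.03, 6.09 and 6.26 on the meiotic arrays against 7.88, 7.74 and 7.77 on the mitotic arrays, and its second-step difference was 0.06 (adjusted p = 0.53). Spd-2, which recruits cnn to the centriole, instead rose by 0.30 (adjusted p = 0.0048) at the first step and fell by 1.94 at the second (adjusted p = 1.3e-10). Grip71, which couples ring complexes to spindle microtubules, was 21.7-fold lower in the post-meiotic than in the meiotic region (difference -4.44, adjusted p = 1.8e-12), and Grip75 was 4.61-fold lower. Their first-step differences were 0.16 for Grip71 (adjusted p = 0.22) and -0.12 for Grip75 (adjusted p = 0.23). After cyclic loess the first-step difference of Grip71 was 0.44 and was called.

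Several ring complex subunits have a testis copy beside the general one. t-Grip84 had 11.18, 11.14 and 11.02 on the meiotic arrays, against 9.50, 9.26 and 9.42 on the mitotic arrays, a difference of 1.72 (adjusted p = 9.3e-09). t-Grip91 rose by 1.5 (adjusted p = 1.3e-08) and t-Grip128 by 2.07 (adjusted p = 5.1e-08) in the same comparison. The general Grip91 fell by 0.53 (adjusted p = 1.9e-04), and Grip84 and Grip128, named here as counterparts of the testis copies after their values were seen, differed by -0.42 and -0.41. The first-step calls of the Grip84 and Grip128 falls were lost after cyclic loess (-0.19 and -0.16). In the post-meiotic relative to the meiotic region, t-Grip91 rose by 0.37 (adjusted p = 0.0016), while t-Grip84 differed by 0.19 (adjusted p = 0.081, and 0.55 with an adjusted p of 8.4e-05 after cyclic loess) and t-Grip128 fell by 1.93 (adjusted p = 5.1e-08). Grip84, Grip91 and Grip128 differed by -1.14, -2.26 and -1.06 there, all called. The difference between a copy and its general counterpart was not tested, and neither was cross-hybridisation between their probe sets.

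**Figure D3:**
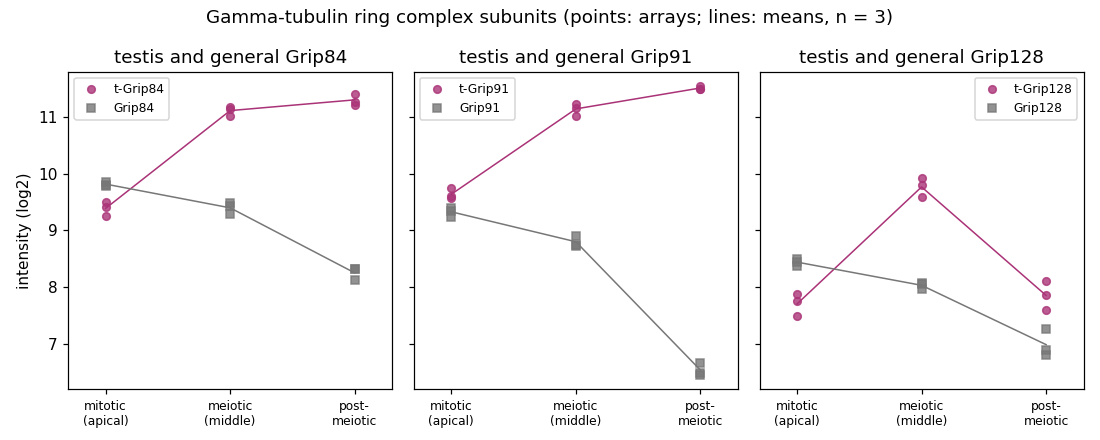
Log2 intensity of 3 gamma-tubulin ring complex subunits and their testis copies in the mitotic, meiotic and post-meiotic regions; points are arrays and lines join the means of 3 arrays. In the order of the regions the means of t-Grip84 are 9.39, 11.12 and 11.31 and those of t-Grip91 are 9.64, 11.15 and 11.52, t-Grip128 has its highest value of 9.77 in the meiotic region, and the general copies decline.

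Of the regulators of centriole duplication, 5 of 7 had a named probe set, and 4 of them fell in the meiotic relative to the mitotic region, with a median of -1.58. tws and mts, the regulatory and catalytic subunits of a protein phosphatase that stabilises SAK, fell by 2.41 (adjusted p = 8.2e-08) and 1.58 (adjusted p = 1.5e-07). slmb, part of the ubiquitin ligase that targets SAK for degradation, fell by 1.89 (adjusted p = 4.6e-08) and then rose by 1.55 in the post-meiotic relative to the meiotic region (adjusted p = 1.6e-07). Its log2 intensity was 7.95, 8.19 and 7.91 on the mitotic arrays, 6.01, 6.06 and 6.32 on the meiotic arrays and 7.91, 7.66 and 7.46 on the post-meiotic arrays. Cdk1, the mitotic kinase, fell by 0.90 at the first step and was 22.9-fold lower in the post-meiotic than in the meiotic region (adjusted p = 7.1e-12). twe, the Cdc25 phosphatase of male meiosis, fell by 1.65 at that step (adjusted p = 1.6e-07) and differed by 0.2 at the first (adjusted p = 0.24). In all, 2 of the 5 rose and 3 fell at the second step, where the rise of tws (0.49) lost its call with centred arrays and the fall of mts (-0.39) after cyclic loess.

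The transition zone is the gate that forms at the end of a basal body. Its 7 measured genes, of 10 listed, gave the most uniform picture of the 5 lists at the second step: all 7 fell in the post-meiotic relative to the meiotic region, with a median of -1.80 and differences from -2.58 to -1.08. The 7 falls were also called after centring the arrays and after cyclic loess. At the first step 4 rose, with differences between 0.36 and 0.68, and none fell. Cc2d2a, which encodes a protein of the zone, rose by 0.68 (adjusted p = 1.1e-04), and Cep290 by 0.61 (adjusted p = 0.0018). Their second-step differences were -2.21 for Cc2d2a (adjusted p = 9.2e-10) and -1.08 for Cep290 (adjusted p = 1.2e-05). The other probe set of Cc2d2a gave 0.47 and -0.57 at the 2 steps, and -0.10 for post-meiotic minus mitotic (adjusted p = 0.47). dila, which encodes the basal body protein Dilatory, fell by 2.58 at the second step (adjusted p = 5.9e-09), the largest fall of the 7, and had 6.91, 6.84 and 6.26 on the post-meiotic arrays, against 9.29, 9.28 and 9.17 on the meiotic arrays. Its first-step difference was 0.31 (adjusted p = 0.11). The order of regions in Cc2d2a, Cep290, Cby and Mks1, highest in the meiotic and lowest in the post-meiotic region, was also that of ana2, Sas-6 and ana1 on the deposited scale. It is not particular to them. The means of dila, Fbf1, Cep135, Poc1, Spd-2, Grip71 and asl had this order too, as did the spermatocyte markers fzo, sa and twe but not can and bol. The post-meiotic minus mitotic difference lost its call after cyclic loess for Cep290 (0.11, with the sign turned) and Cby (-0.11), as it did for ana2 and Sas-6.

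Intraflagellar transport builds cilia along their microtubules, although fly sperm flagella assemble without it. Of 13 measured and 14 listed genes, 6 rose and 3 fell in the meiotic relative to the mitotic region, and 5 rose and 5 fell in the post-meiotic relative to the meiotic region, with medians of 0.00 and 0.03 on the deposited scale. At the second step the counts were 3 higher and 6 lower with centred arrays (median -0.12) and 5 higher and 6 lower after cyclic loess (median -0.18). IFT52 rose by 1.63 (adjusted p = 6.6e-07) and nompB, which encodes the fly IFT88, by 1.48 (adjusted p = 2.1e-06) at the first step. At the second, IFT52 fell by 0.88 (adjusted p = 1.7e-04) and nompB differed by 0.10 (adjusted p = 0.59). Klp68D, a subunit of the kinesin that drives the transport, fell by 1.2 at the first step (adjusted p = 4.3e-05) and rose by 0.66 at the second (adjusted p = 0.0041). Oseg1 rose by 1.04 (adjusted p = 1.1e-06) and then fell by 0.82 (adjusted p = 8.3e-06). Oseg5 differed by -0.04 at the first step (adjusted p = 0.82) and rose by 0.75 at the second (adjusted p = 4.0e-04). IFT20, dim with means of 5.28, 4.38 and 3.71 in mitotic, meiotic and post-meiotic order, fell at both steps. Markers of neurons, some of which carry such cilia outside the testis, had array means over 4 genes (nan, iav, nompC, elav) of 5.39 to 5.45 in the mitotic, 5.29 to 5.46 in the meiotic and 5.72 to 5.86 in the post-meiotic region. Of these 4 markers, 3 rose in the post-meiotic relative to the meiotic region, where 37.8% of all probe sets were called higher. All 4 were dim, and the other nompC probe set differed by 0.08 in that comparison (adjusted p = 0.39). The part of neurons in the values of this list was not tested.

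Between the end regions, the post-meiotic was higher than the mitotic region in 4 and lower in 3 of the 9 assembly genes, higher in 3 and lower in 11 of the 15 pericentriolar genes, lower in all 5 regulators and all 7 transition zone genes, and higher in 8 and lower in 3 of the 13 transport genes. The medians were 0.12, -1.46, -1.91, -1.53 and 0.36 in that order. Over all probe sets, 49.6% were called higher and 29.5% lower, with a median of 0.21. That median was -0.0 among probe sets with a mean log2 intensity of at least 6. After cyclic loess 4 assembly genes were called higher and 4 lower. Of the pericentriolar genes 4 were then higher and 11 lower, and of the transport genes 6 and 2. Under that scaling 4 of 5 regulators and 5 of 7 transition zone genes were called lower. The list medians were then 0.12, -0.84, -1.36, -0.99 and 0.25, against 0.01 over all probe sets.

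**Figure D4:**
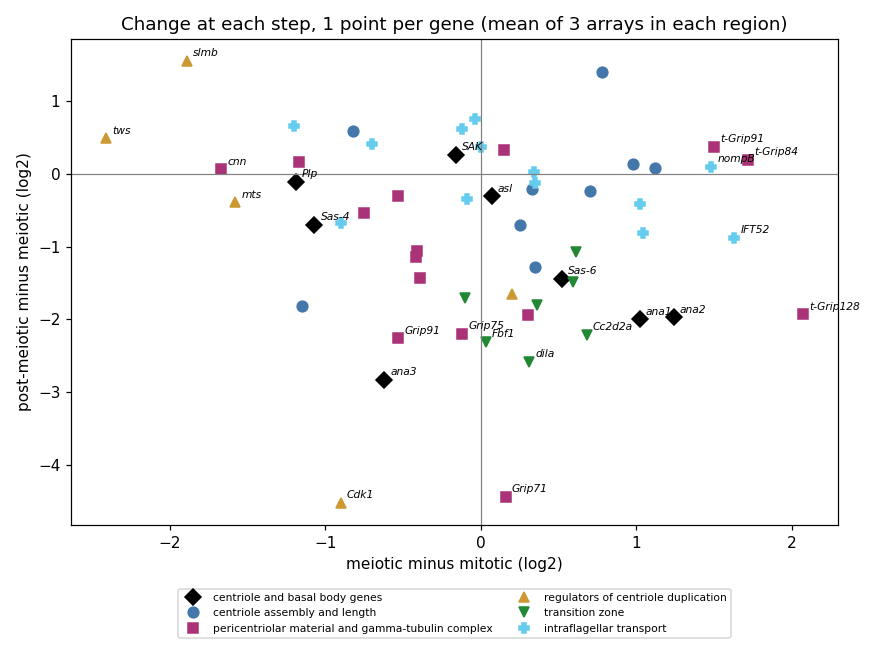
Meiotic minus mitotic difference (horizontal axis) against post-meiotic minus meiotic difference (vertical axis), both log2, for the 8 centriole genes (black diamonds) and the genes of the 5 lists, 1 point per gene; the axes share the meiotic arrays, so the position of points along the falling diagonal carries no test. ana2, ana1 and Sas-6 lie in the lower right, as do the transition zone genes Cc2d2a, Cep290, Cby, Mks1 and dila; Fbf1 is close to the vertical line at 0.03, B9d1 lies left of it at -0.10, and ana3 lies in the lower left.

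**Figure D5:**
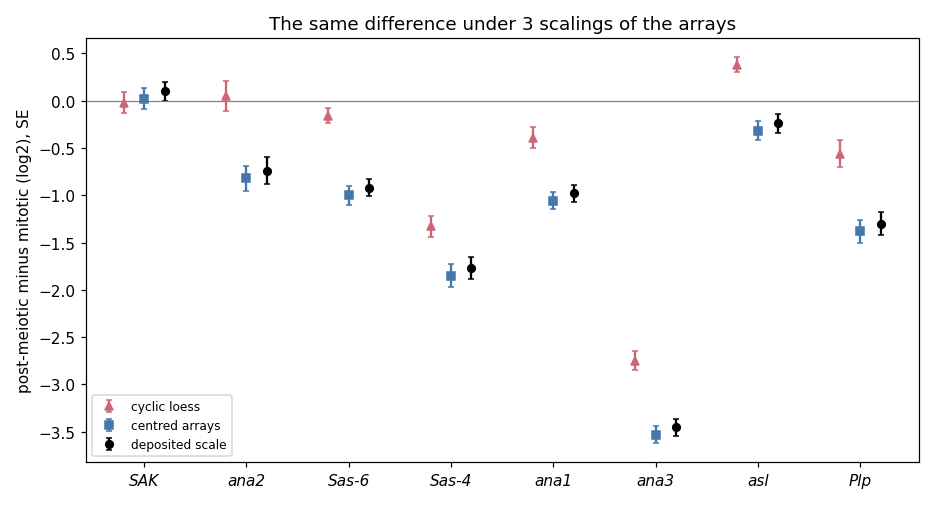
Post-meiotic minus mitotic difference of the 8 genes in log2, with SE, after cyclic loess (triangles), with centred arrays (squares) and on the deposited scale (circles). Sas-4, ana1, ana3 and Plp stay below 0 under each scaling, whereas ana2 moves to 0.05 and asl to 0.38 after cyclic loess.

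The scaling moved the whole table as well as these genes. Among all called probe sets, 57.7% were higher in the post-meiotic than in the meiotic region on the deposited scale, 43% with each array centred on its median and 50.8% after cyclic loess. For post-meiotic against mitotic, 62.7% of called probe sets were higher on the deposited scale and 50.3% after cyclic loess. The median post-meiotic minus mitotic difference over all probe sets, 0.21 on the deposited scale, was 0.01 after cyclic loess. The differences of Sas-6 (-0.92 to -0.16), ana2 (-0.74 to 0.05) and asl (-0.24 to 0.38) moved further and in the other direction, upward.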

How the data were processed

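The deposited log2 intensities of the 9 arrays were made by the authors, as the methods state, with RMA background correction and quantile normalization in R, without pooling replicates. The upper quartiles of the deposited values differ between regions, and whether all arrays were normalized together was not settled. The versions are not given in the sources used here. Depth does not apply to arrays, and 3 arrays a region limit the precision. Of 18952 probe sets, 183 are controls of the manufacturer and were not used. In the annotation of the array 13647 probe sets carried 1 symbol, 402 several and 4720 none, and no gene was named from a probe set with several. The probe sets of ana1, of Poc1, cnn, gammaTub23C, mts and Cdk1, and of the markers Fas3, Mhc and Act57B were named through the study's supplementary tables, from which no value was taken. Regions were tested in limma 3.58.1 (group means, with lmFit followed by eBayes) in R 4.3.3, with Benjamini-Hochberg adjustment over 18769 probe sets and a threshold of 0.05, after a test on simulated data. Exact permutation tests used scipy 1.17.1, and tables and figures pandas 2.3.3 and matplotlib 3.10.9 (Python 3.11.15).

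The members and lists were chosen with earlier results of these data known. Named genes are all members, up to 4 called genes of each list with the largest absolute difference in each comparison, and the 2 genes nearest each member in profile. Further genes of the lists were named beside these after their values were seen. Alternatives were a filter at a mean log2 intensity of 6, centred arrays, cyclic loess, the replicate number as a block, the 6 arrays of a pair, trended and robust eBayes, each array left out, the other probe sets of a gene and an absolute difference of at least 1; counts with ana1 were added after the data were seen. Whether replicates come from separate batches is not given in the sources used here. No promoter or protein sequence was used.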

Additional observations from a re-analysis of the deposited data

How the results depend on the processing

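Of the differences of single genes, 285 alternatives kept the side of the threshold, 26 lost the call, 1 gained it and 3 turned sign from a called difference. A turn of sign without a call before or after was counted among the 285. An example is Plp post-meiotic minus meiotic (-0.11), which reached 0.04 with an array left out. The 3 called differences that turned, all after cyclic loess, were asl post-meiotic minus meiotic (0.15) and post-meiotic minus mitotic (0.38) and ana2 post-meiotic minus mitotic (0.05). The cause was not tested. The 5 genes counted lower in the post-meiotic than in the meiotic region and the 6 lower than in the mitotic region became 3 and 3 where a difference of at least 1 was required, and the second became 3 lower and 1 higher after cyclic loess. The 2 genes higher in the meiotic than in the mitotic region became 1 at that size. The 1 gene higher in the post-meiotic than in the meiotic region, SAK, became 0 with the 6 arrays of the pair, centred arrays, cyclic loess, the filter on dim probe sets and a difference of at least 1, and ranged from 0 to 1 with an array left out. In the lists, requiring a difference of at least 1 left 2 assembly, 5 pericentriolar, 0 transition zone and 5 intraflagellar transport genes called in the meiotic relative to the mitotic region, 3 assembly, 3 regulator and 0 transport genes in the post-meiotic relative to the meiotic region, and 4 assembly and 2 transport genes in the post-meiotic relative to the mitotic region. Of all probe sets, 1646 were then higher and 1887 lower in the meiotic than in the mitotic region, 1784 and 2808 in the post-meiotic than in the meiotic region, and 2436 higher in the post-meiotic than in the mitotic region. The 7100 higher in the post-meiotic than in the meiotic region were 4565 with centred arrays and 4359 with the dim filter, and the 9309 higher than in the mitotic region were 5873 after cyclic loess and 4973 with that filter.

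The deviations of same-numbered arrays from their region means correlated at -0.09 to 0.36, with 1 of 9 over 0.1. That 1 was replicate 1 of the mitotic and meiotic regions. With 3 arrays a region, such correlations cannot show whether the numbers pair the arrays. With the replicate block the counts stayed at 2 higher and 3 lower in the meiotic than in the mitotic region, 1 and 5 in the post-meiotic than in the meiotic region and 0 and 6 in the post-meiotic than in the mitotic region. The values carry no detection calls, so a lower limit for the dim SAK probe set is not known.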
